A study of Arabidopsis thaliana with 9 samples.

Results

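The comparison set 3 samples with 6 h of PAN induction against 3 samples at 0 h, which is 6 of the 9 samples in the series. The other 3 samples had 24 h of induction and enter here as levels beside the comparison and in a filter on low values. All samples came from roots of 1 genotype, the XVE:PAN transgenic line of Arabidopsis thaliana in the Col-0 background, so the 0 h samples carry the transgene as well. In an XVE line an activator that responds to estradiol drives the transgene, here PERIANTHIA (PAN). Plants grew for 5 days in all on medium with 1% sucrose and were then kept on the same medium with 10 uM β-estradiol for the stated time. The labels do not say which promoter drives the activator, in which cells, or whether the line is a single insertion. For the tissue they give whole root in one place, and elsewhere roots cut some 0.5 cm behind the tip.

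The samples include neither a mock treatment nor plants that lack the transgene. Time on estradiol, time since transfer, time of day and PAN induction therefore cannot be told apart in any result below. The authors deposited 1 value per gene and time, made from the 3 replicates, so no spread between replicates can be given. The values are taken here as FPKM, a fragment count scaled for the length of the transcript and the size of the library. The only measure of replicate error is the q-value that the authors' deposited table gives for each gene. A gene is called changed here when that q-value is below 0.05 and its mean FPKM over the 3 times is at least 1. The change of a gene is log2(FPKM + 1) at 6 h minus that at 0 h, so a positive change means higher at 6 h, and the change of genes near or below 1 FPKM is understated.

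Of 33201 rows, 17841 passed the filter and were compared. The call was made for 2021 of them, or 11.3%. Genes called higher made up 3.98% of the genes compared and genes called lower 7.35%, and every count below is read against these shares. The smallest q-value in the authors' deposited table is 0.000358, and 633 called genes share it. A called gene named below without a q-value has this one, unless its call is said to be lost. When the p-values behind the deposited q-values were adjusted over this comparison only, 1358 of the 2021 calls remained, and a named gene whose call was lost is marked as such.

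PAN is a bZIP transcription factor of the TGA family, whose members bind DNA that contains TGACG. TGA factors are known to work with NPR proteins, which sense salicylate, and with CC-type glutaredoxins, small thiol enzymes that can repress TGA activity. PAN itself is known for setting the number of floral organs and for a role in the stem cell niche of the root. PAN had 688 FPKM at 6 h and 1.03 FPKM at 0 h, a change of 8.40, which is the largest of the genes compared. Transgene and endogenous transcripts are not separated in these values, and 28.5% of the 100 bp stretches of the PAN transcript also lie in another gene.

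Upstream sequence was read for all genes, since the TGACG core gives a fixed string to look for. For each gene the 250 bases before the start of its longest RefSeq transcript (assembly TAIR10.1) were searched for TGACG on either strand. The 5 genes shown first below rose at 6 h and were chosen after their values were seen, because they encode partners or relatives of partners of TGA factors or hold several matches. AGP15, which fell, is shown as a window without a match. The windows overlap no annotated gene. Capitals mark TGACG, or CGTCA where it lies on the other strand, and each window is written 5′ to 3′ on the strand of its gene.
NAC004 (chr1:436923-437172, minus strand): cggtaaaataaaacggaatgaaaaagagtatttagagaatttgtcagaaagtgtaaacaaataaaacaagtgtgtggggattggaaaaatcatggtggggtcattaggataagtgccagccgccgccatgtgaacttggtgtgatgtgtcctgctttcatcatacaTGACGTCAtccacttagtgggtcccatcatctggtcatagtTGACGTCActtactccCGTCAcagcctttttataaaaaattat
WRKY51 (chr5:25907997-25908246, plus strand): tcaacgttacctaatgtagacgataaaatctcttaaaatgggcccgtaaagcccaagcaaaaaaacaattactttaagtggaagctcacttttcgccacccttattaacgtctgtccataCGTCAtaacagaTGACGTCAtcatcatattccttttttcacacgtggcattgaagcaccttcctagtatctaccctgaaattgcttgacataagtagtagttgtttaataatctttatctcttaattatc
WRKY70 (chr3:20910624-20910873, minus strand): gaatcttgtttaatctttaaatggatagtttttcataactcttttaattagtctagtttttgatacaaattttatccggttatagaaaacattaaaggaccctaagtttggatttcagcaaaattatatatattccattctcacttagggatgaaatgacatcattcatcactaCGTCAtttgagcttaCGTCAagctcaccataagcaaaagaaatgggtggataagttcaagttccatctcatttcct
GRXS13 (chr1:977912-978161, minus strand): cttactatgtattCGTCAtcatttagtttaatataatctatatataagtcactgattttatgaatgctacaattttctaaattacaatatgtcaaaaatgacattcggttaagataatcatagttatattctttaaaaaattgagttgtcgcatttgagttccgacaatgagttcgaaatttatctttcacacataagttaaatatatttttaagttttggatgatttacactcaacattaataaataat
GRX480 (chr1:10014257-10014506, minus strand): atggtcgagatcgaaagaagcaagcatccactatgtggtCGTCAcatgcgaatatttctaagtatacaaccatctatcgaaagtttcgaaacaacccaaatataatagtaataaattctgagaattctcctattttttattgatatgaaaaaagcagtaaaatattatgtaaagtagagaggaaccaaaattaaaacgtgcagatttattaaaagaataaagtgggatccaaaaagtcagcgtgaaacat
AGP15 (chr5:3783680-3783929, plus strand): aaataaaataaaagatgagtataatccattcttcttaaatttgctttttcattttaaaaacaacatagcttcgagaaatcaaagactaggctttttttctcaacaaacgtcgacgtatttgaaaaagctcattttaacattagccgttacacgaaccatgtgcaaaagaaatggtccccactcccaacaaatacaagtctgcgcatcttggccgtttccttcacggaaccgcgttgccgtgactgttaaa
The NAC004 window holds 5 matches, of which 4 form a pair of palindromes, where TGACG on one strand and TGACG on the other share their CG. The first bases of these palindromes lie at -84 and -43 from the transcript start. WRKY51 holds 3 matches between -130 and -115, again with 1 palindrome, and WRKY70 holds 2 matches at -76 and -61. Over the WRKY family TGACG was found in 8 of 42 windows (19%), near the 19.6% of all windows. In the glutaredoxin genes GRXS13 and GRX480 the single match lies far upstream, at -237 and -211. A match is a string in this window and does not show binding.

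Across 17500 upstream windows, 19.6% held TGACG. The share was 26.1% among genes called higher (183 of 702) and 18.1% among genes called lower (236 of 1304). Among called genes with a change of at least 1 it was 32.1% (72 of 224), and among those with a change of -1 or less it was 15.5% (36 of 233). The longer string TGACGT followed the same order, with 12.5% of the genes called higher, 6.60% of the genes called lower and 8.18% of all windows. The shorter string ACGT hardly differed by direction, with 50% of the genes called higher, 49.5% of the genes called lower and 44.9% of all. The palindrome was not among the strings planned. It was found in 9 of 702 windows of genes called higher (1.28%), 5 of 1304 of those called lower (0.383%) and 95 of 17500 of all (0.543%). NAC004 and WRKY51, shown above, are among the 9. AAGAAT, a string reported for PAN binding, was found in 29.1% of the genes called higher, 28.4% of those called lower and 28.2% of all. CACGTG, the G-box, was less frequent among genes called higher (5.56%) than among genes called lower (7.36%) and among all genes (7.34%). TTGAC, the core of the W-box bound by WRKY factors, was added after the values were seen. It was found in 55.7% of genes called higher, 46.9% of genes called lower and 45.8% of all, and it overlaps TGACG wherever TTGACG occurs. Mean GC content of the windows was 30.6% for genes called higher, 29.7% for genes called lower and 31.6% for all, and its part in these shares was not tested.

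Most calls at 6 h were falls, and many of these were in abundant transcripts. There were 710 genes called higher and 1311 called lower, so 35.1% of the calls were higher. With a change of at least 1 in either direction, 226 were higher and 234 lower, which makes the higher share 49.1%. Genes called lower had a median of 18.5 FPKM at 6 h and 30.8 FPKM at 0 h, whereas genes called higher had a median of 13.6 FPKM at 6 h and 6.66 FPKM at 0 h. The genes called lower held 10.2% of all FPKM at 6 h and 16.5% at 0 h. Those called higher held 3.45% at 6 h and 1.73% at 0 h. In the top 25% of genes by mean FPKM, 10.8% were called lower and 3.74% higher, and in the bottom 25% 4.73% were called lower and 4.53% higher. Most genes stayed close to their 0 h level, since the median change was 0.02 and the middle 90% of genes lay between -0.63 and 0.52.

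**Figure D1:**
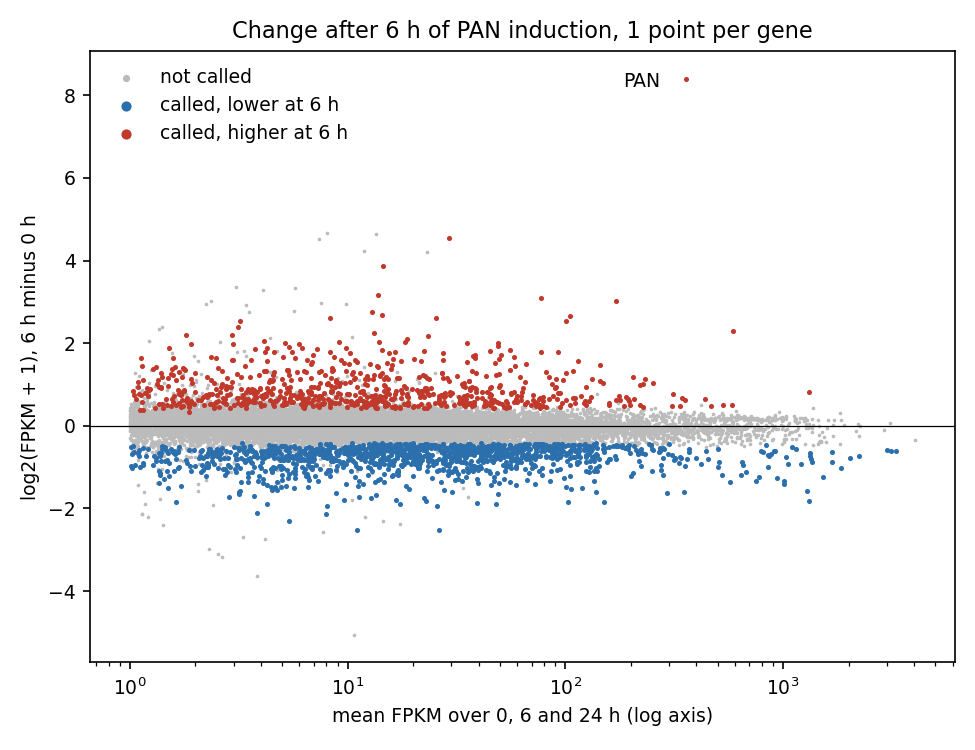
Change at 6 h against 0 h in log2(FPKM + 1) for the 17841 genes compared, plotted against the mean FPKM over the 3 times on a log axis. Each point is a gene; red points were called higher, blue points lower and grey points were not called. PAN stands alone near 8.40, and blue points outnumber red points most at high mean FPKM.

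Which kinds of gene these were is described with lists of genes by function and with families taken from product names. Suberin genes had a high share called higher, and arabinogalactan protein, xyloglucan hydrolase and aquaporin genes had high shares called lower.

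**Figure D2:**
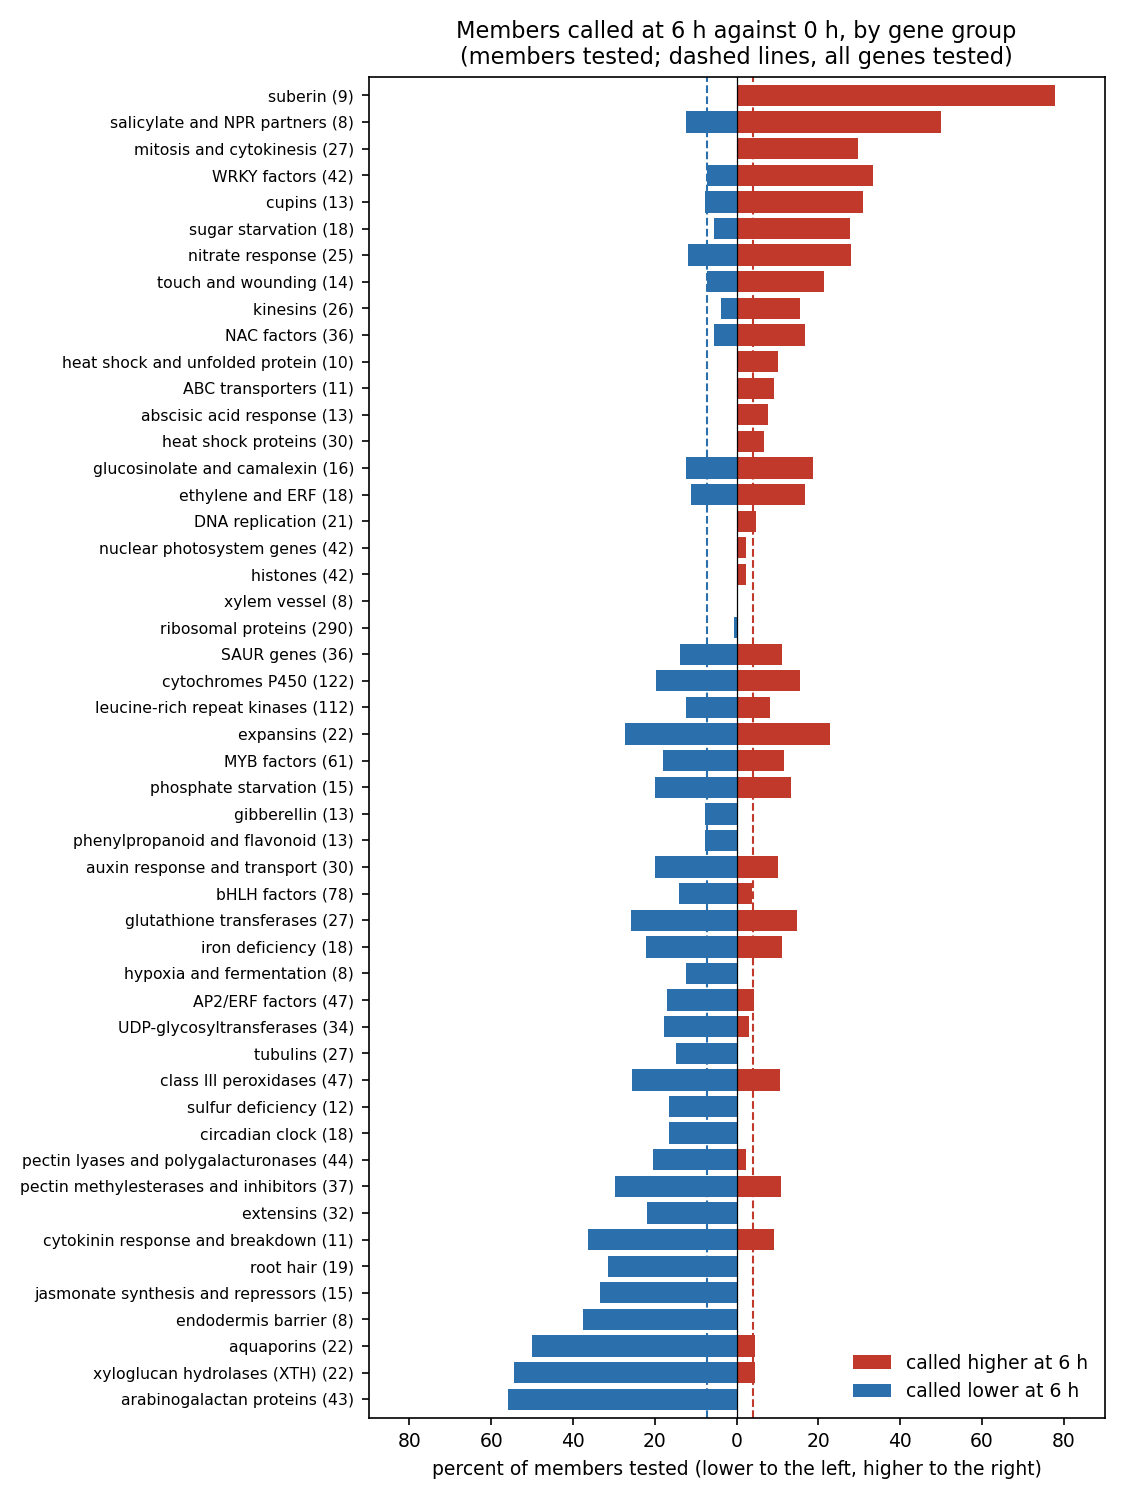
Share of each gene group that was called higher (red, to the right) and called lower (blue, to the left) at 6 h against 0 h, in percent of the members compared, whose number is in brackets. Dashed lines mark the shares over all genes, 3.98% higher and 7.35% lower. Suberin genes reach 77.8% to the right, and arabinogalactan proteins 55.8% and xyloglucan hydrolases 54.5% to the left.

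Some genes of known partners of TGA factors rose at 6 h. Of 19 CC-type glutaredoxin genes only 4 passed the filter, and 2 of these were called higher and 0 lower (2 higher and 1 lower at an unadjusted p below 0.05). GRXS6 (AT3G62930), named after its value was seen, was not called and had 3.81 FPKM at 6 h and 7.44 FPKM at 0 h, a change of -0.81. GRXS13 had 244 FPKM at 6 h and 29.2 FPKM at 0 h, a change of 3.02. GRX480, which is known to bind TGA factors and to act in the cross-talk of salicylate with jasmonate, had 40.7 FPKM at 6 h and 13.7 FPKM at 0 h (change 1.51). Among 8 genes of salicylate response and NPR partners, 4 were called higher and 1 lower, with a median change of 0.47. The salicylate receptors NPR3 and NPR4 had 38.5 and 39.2 FPKM at 6 h, against 16.8 and 22.7 FPKM at 0 h. WRKY70, a factor that acts downstream of salicylate, had 18.2 FPKM at 6 h and 6.12 FPKM at 0 h. The ratio of the level at 6 h to that at 0 h lay between 1.73 for NPR4 and 2.97 for WRKY70. NIMIN1, which encodes a protein that binds NPR1, had 4.45 FPKM at 6 h and 0.377 FPKM at 0 h, at q = 0.0455 in the authors' deposited table, and its call was lost when adjusted within this comparison. EDS5, the exporter of salicylate precursor from the plastid, fell, with 24.9 FPKM at 6 h and 38.5 FPKM at 0 h (q = 0.00564 in the authors' deposited table).

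Transcription factor genes, counted by product name, numbered 561, of which 48 (8.56%) were called higher and 62 (11.1%) lower, with a median change of -0.02. The families differed in direction. WRKY factors, known from defence and senescence, had 14 of 42 called higher and 3 lower, and 14 of these 17 calls were kept when adjusted within this comparison. WRKY30 had 11.1 FPKM at 6 h and 2.22 FPKM at 0 h, WRKY75 had 34.5 and 10.5 FPKM, WRKY38 had 8.53 and 2.39 FPKM, and WRKY51 had 15.2 and 6.37 FPKM in the same order. Their changes lay between 1.14 and 1.92. WRKY38 and WRKY51 stood higher still at 24 h, at 27.2 and 22.7 FPKM, whereas WRKY30 was at 2.74 FPKM. NAC factors had 6 of 36 called higher and 2 lower. NAC004 had the largest rise of any factor gene apart from PAN, with 43.4 FPKM at 6 h and 6.32 FPKM at 0 h (change 2.60). Its neighbour NAC003 had 16.3 FPKM at 6 h and 8.66 FPKM at 0 h. NAC032 fell, with 36.5 FPKM at 6 h and 90.9 FPKM at 0 h.

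Other factor families, as matched by product name, were called lower more often than higher, as were all genes compared (7.35% lower and 3.98% higher). Basic helix-loop-helix factors had 3 of 78 called higher and 11 lower, and AP2/ERF factors 2 of 47 higher and 8 lower. MYB factors had 7 of 61 higher and 11 lower. The match left out, among others, the AP2/ERF genes ERF6, ERF2 and AIL6, which were called higher. The calls of ERF2 (q = 0.0252 in the authors' deposited table) and AIL6 were lost when adjusted within this comparison. Left out of the basic helix-loop-helix family were FRU, called higher, and RHD6, called lower (q = 0.00379 in the authors' deposited table). The counts therefore describe the matched genes only. MYC2, the main activator of jasmonate responses, had 21.4 FPKM at 6 h and 35.5 FPKM at 0 h, although 98.5% of its transcript stretches also lie in another gene. MYB58, known as an activator of lignin genes, had 7.66 FPKM at 6 h and 1.36 FPKM at 0 h, with 83.5% of its stretches shared. MYB93 and MYB39 rose by 1.40 and 1.32 on the log2(FPKM + 1) scale, to 4.60 and 9.88 FPKM at 6 h, against 1.12 and 3.36 FPKM at 0 h. MYB39 is known as a regulator of suberin in the endodermis. AT2G46680, annotated as homeobox 7, a factor gene known to respond to abscisic acid and drought, had 12.5 FPKM at 6 h and 2.70 FPKM at 0 h. The largest fall of a factor gene was in AT5G39240, annotated as UPBEAT-like, with 15.7 FPKM at 6 h and 59.8 FPKM at 0 h (change -1.87).

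The endodermis is the cell layer around the vascular cylinder, and it carries a Casparian strip of lignin and later lamellae of suberin, a waxy polyester. The calls in the gene lists of these barriers were opposite in direction. Of 9 suberin genes compared, 7 were called higher and 0 lower, and all 9 had a higher value at 6 h, with a median change of 1.10. The other 2 of the 11 listed genes were below the filter. ABCG6, an exporter of suberin precursors, had 9.39 FPKM at 6 h and 2.28 FPKM at 0 h. The glycerol acyltransferase GPAT5 had 3.19 FPKM at 6 h and 0.614 FPKM at 0 h, and the fatty alcohol-forming reductases FAR5 and FAR4 had 8.72 and 2.64 FPKM at 6 h, against 2.78 and 0.540 FPKM at 0 h. The ratios of the level at 6 h to that at 0 h in these 4 genes lay between 3.13 and 5.20. The hydroxylase CYP86B1 had 7.41 FPKM at 6 h and 2.92 FPKM at 0 h. The most abundant member, RWP1, whose enzyme attaches ferulate to suberin, had 134 FPKM at 6 h and 86.8 FPKM at 0 h (q = 0.00379 in the authors' deposited table), the smallest change of the 7, 0.62. The transporter gene ABCG20 had 3.60 FPKM at 6 h and 1.91 FPKM at 0 h (q = 0.00336 in the authors' deposited table). All 7 calls were kept when adjusted within this comparison. At 24 h, 6 of these 7 genes had a level between those at 0 h and 6 h, and RWP1 was below its 0 h level at 81.6 FPKM.

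Genes of the Casparian strip and its regulator had lower values at 6 h. Of 8 such genes, 3 were called lower and 0 higher (0 higher and 6 lower at an unadjusted p below 0.05), and all 8 had a lower value at 6 h, with a median change of -0.41. CASP5, a membrane scaffold of the strip, had 49.1 FPKM at 6 h and 124 FPKM at 0 h (change -1.32). CASP2 and CASP4 had 268 and 222 FPKM at 6 h, against 367 and 299.7 FPKM at 0 h, with q-values of 0.0388 and 0.0468 in the authors' deposited table. Their calls were lost when adjusted within this comparison, which left CASP5. The summed level of the 8 genes was 1974 FPKM at 6 h and 2654 FPKM at 0 h. In bulk roots fewer cells of a type and less RNA per cell cannot be told apart, here and in every group below.

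**Figure D3:**
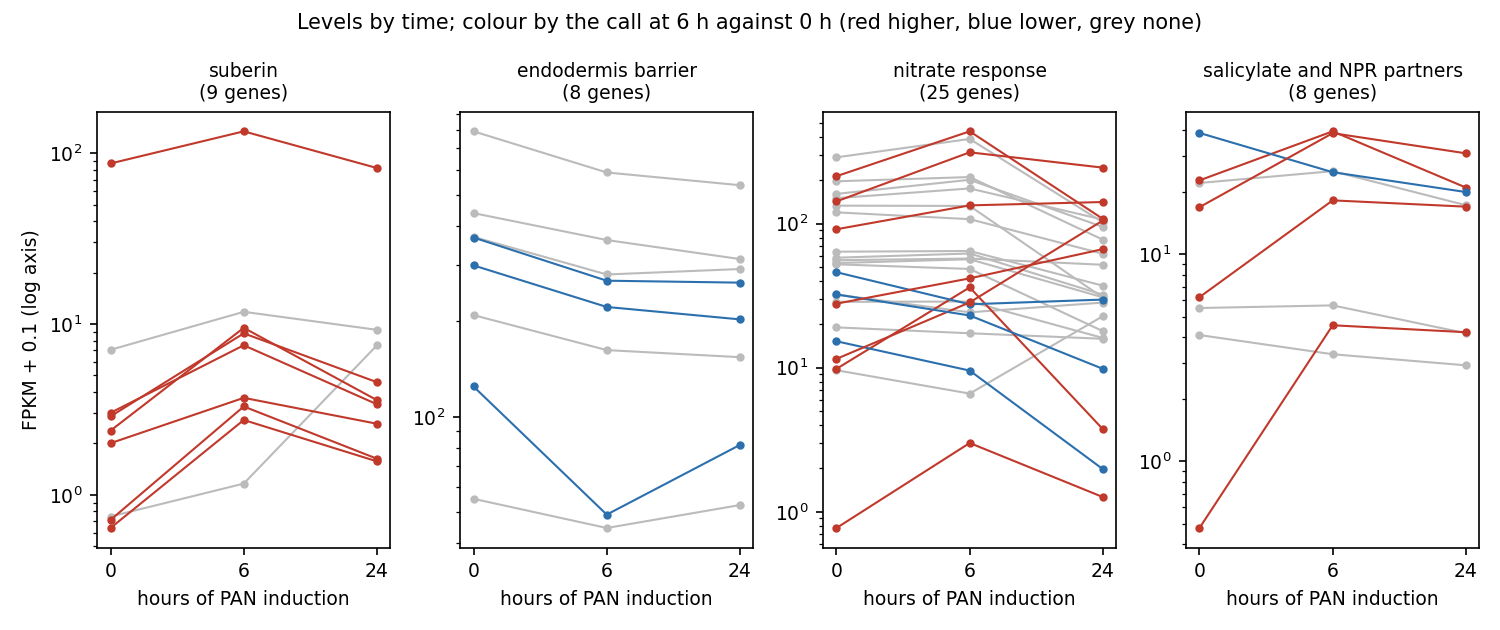
FPKM + 0.1 on a log axis at 0, 6 and 24 h for each gene compared of the suberin, Casparian strip (endodermis barrier), nitrate response and salicylate lists. Each line is a gene, red where called higher at 6 h against 0 h, blue where called lower and grey where not called; each point is 1 pooled value. All 9 suberin lines go up between 0 h and 6 h and all 8 Casparian strip lines go down.

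Genes of water transport and of the cell wall were frequent among the falls. Aquaporins, the water channels of plasma membrane and vacuole, had 11 of 22 called lower and 1 higher, with a median change of -0.53. The plasma membrane channels PIP1;4 and PIP2;4 had 57.4 and 174 FPKM at 6 h, against 209.8 and 537 FPKM at 0 h. PIP3 had 632 FPKM at 6 h and 1684 FPKM at 0 h, and PIP1C had 349 and 894 FPKM in the same order. The ratio of the level at 6 h to that at 0 h lay between 0.274 and 0.391 in these 4 genes. NLM1, a NOD26-like channel, had 444 FPKM at 6 h and 891 FPKM at 0 h. GAMMA-TIP, a vacuolar channel, had 1601 FPKM at 6 h and 2728 FPKM at 0 h (q = 0.00832 in the authors' deposited table). The whole family summed to 11032 FPKM at 6 h and 18500.0 FPKM at 0 h. The member called higher was NIP3;1, named after its value was seen, with 16.4 FPKM at 6 h and 9.92 FPKM at 0 h (q = 0.0123 in the authors' deposited table).

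Arabinogalactan proteins are heavily glycosylated proteins of the cell surface. Of 43 genes, 24 were called lower and 0 higher (0 higher and 25 lower at an unadjusted p below 0.05), with a median change of -0.52. They included AGP15 with 575 FPKM at 6 h and 1385 FPKM at 0 h, AGP2 with 1402 and 2843 FPKM, and AGP22 with 637 and 1274 FPKM in the same order. AGP4 and AGP21 fell likewise, to 482 and 927 FPKM at 6 h, against 1137 and 1768 FPKM at 0 h, but share 28.6% and 80.8% of their stretches with other genes. The fasciclin-like members FLA13 and FLA2 had 70.9 and 204 FPKM at 6 h, against 149 and 396 FPKM at 0 h. The family summed to 14110.1 FPKM at 6 h and 23032 FPKM at 0 h, and 19 of its calls were kept when adjusted within this comparison.

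Xyloglucan hydrolases, which cut and rejoin the hemicellulose of the wall, had 12 of 22 genes called lower and 1 higher, with a median change of -0.50. XTH8 had 89.8 FPKM at 6 h and 197 FPKM at 0 h, and XTH19 had 295 and 552 FPKM in the same order. TCH4, a member known to respond to touch, had 5.72 FPKM at 6 h and 11.7 FPKM at 0 h (q = 0.00270 in the authors' deposited table). The exception was XTH2, with 18.1 FPKM at 6 h and 1.81 FPKM at 0 h, a change of 2.76. Expansins, which loosen the wall at low pH, went both ways, with 5 of 22 called higher and 6 lower and a median change of 0.05. EXPA12 and EXPA1 had 15.6 and 88.9 FPKM at 6 h, against 3.10 and 28.2 FPKM at 0 h. EXLA2, EXPB1 and EXPA14 had 14.0, 97.1 and 31.4 FPKM at 6 h, against 56.1, 179 and 63.7 FPKM at 0 h. Within 1 family of wall-loosening proteins, changes thus ranged from -2.52 to 2.02.

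Structural proteins and pectin enzymes of the wall were called lower more often than higher. Extensins had 7 of 32 called lower and 0 higher (1 higher and 9 lower at an unadjusted p below 0.05). EXT4 had 184 FPKM at 6 h and 411 FPKM at 0 h, and EXT12 had 265 and 463 FPKM in the same order (q = 0.000951 for EXT12 in the authors' deposited table). Pectin methylesterases and their inhibitors had 11 of 37 called lower and 4 higher, and pectin lyases and polygalacturonases 9 of 44 lower and 1 higher. The inhibitor-like gene AT4G25250 had 80.7 FPKM at 6 h and 292 FPKM at 0 h, and PME2 had 114 FPKM at 6 h and 245 FPKM at 0 h. ATPMEPCRB, a pectin methylesterase gene, rose, with 8.14 FPKM at 6 h and 2.91 FPKM at 0 h. Class III peroxidases, secreted enzymes that can stiffen walls, had 12 of 47 called lower and 5 higher. AT2G39040 fell to 103 FPKM at 6 h, against 221 FPKM at 0 h. AT1G68850 and DOX1 rose to 5.02 and 164 FPKM at 6 h, against 1.00 and 75.8 FPKM at 0 h. DOX1 is an alpha-dioxygenase that acts on fatty acids and carries a peroxidase product name. Tubulins had 4 of 27 called lower and 0 higher (0 higher and 5 lower at an unadjusted p below 0.05), and only that of TUA3 was kept when adjusted within this comparison (q = 0.00270 in the authors' deposited table).

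Genes of root hairs, the tubular outgrowths of the epidermis, lay among these wall genes. Of 19 root hair genes, 6 were called lower and 0 higher (1 higher and 8 lower at an unadjusted p below 0.05), and 18 had a lower value at 6 h, with a median change of -0.31. RHD6, a factor that starts hair growth, had 25.1 FPKM at 6 h and 39.0 FPKM at 0 h (q = 0.00379 in the authors' deposited table). PRP3, a hair wall protein, had 686 FPKM at 6 h and 1054 FPKM at 0 h (q = 0.0117 in the authors' deposited table). The list summed to 2972 FPKM at 6 h and 3775 FPKM at 0 h, and none of its genes was listed at 0. The part of root hair cells in the fall of the wall and aquaporin families was not tested.

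**Figure D4:**
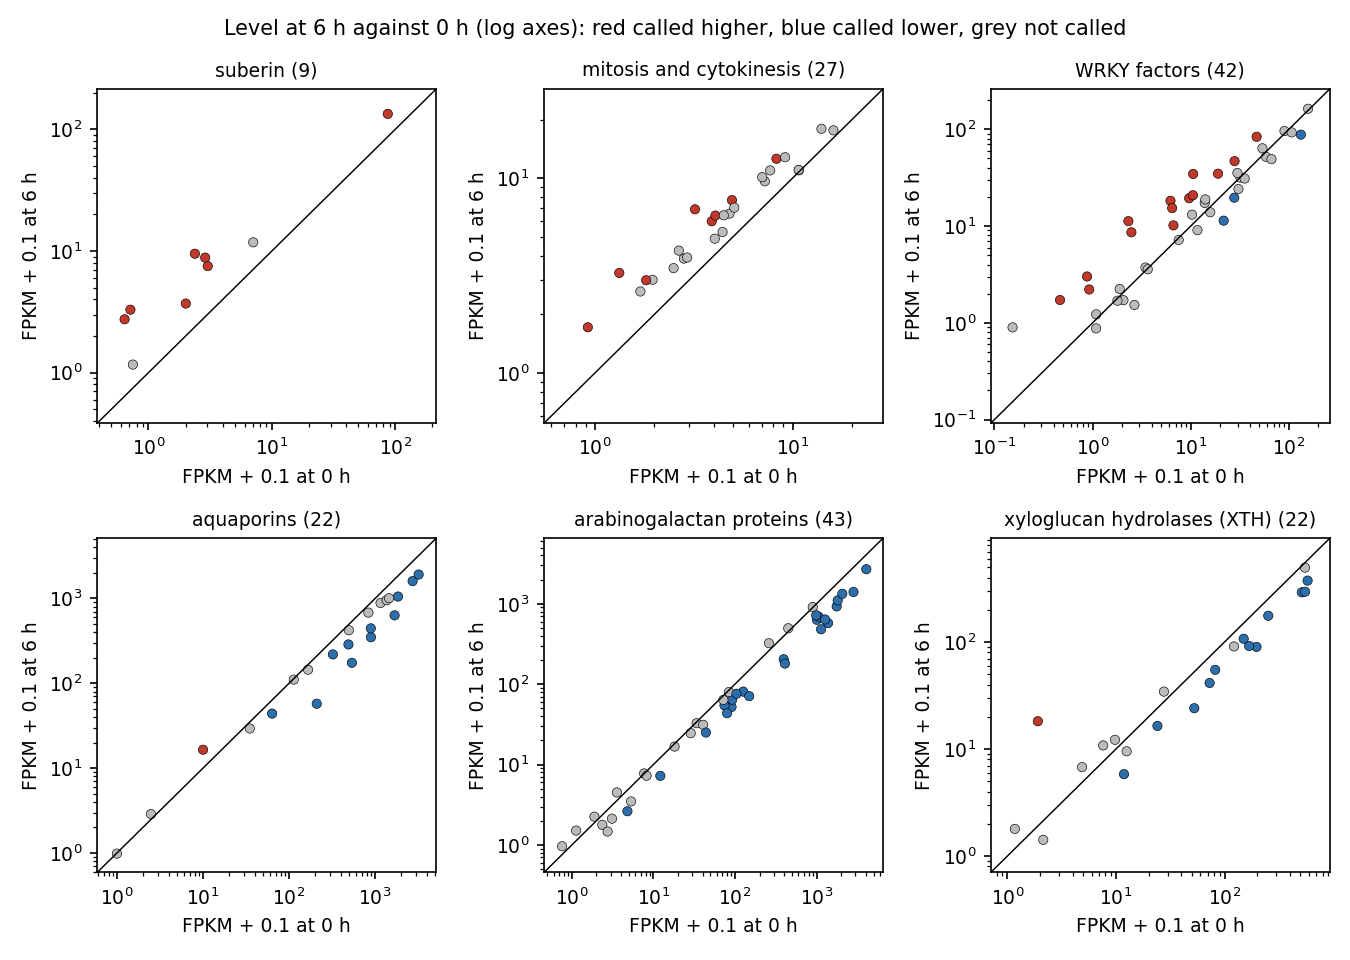
Level at 6 h (vertical) against level at 0 h (horizontal), both as FPKM + 0.1 on log axes, for 6 gene groups, with the number of genes in brackets. Each point is a gene, red where called higher, blue where called lower and grey where not called, and the line marks equal levels. Suberin and mitosis genes lie above the line, and most aquaporins, arabinogalactan proteins and xyloglucan hydrolases lie below it.

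Genes of nitrate uptake rose, and a gene of nitrate reduction fell. Of 25 nitrate response genes compared, 7 were called higher and 3 lower, with a median change of 0.09. The list summed to 2629.9 FPKM at 6 h and 2010.0 FPKM at 0 h. WR3, a partner of the high-affinity transporters also known as NRT3.1, had 312 FPKM at 6 h and 143 FPKM at 0 h. The transporter genes NRT1.1 and NRT2:1 had 437 and 36.0 FPKM at 6 h, against 213 and 9.72 FPKM at 0 h. At 24 h both were below their 0 h levels, at 108 and 3.64 FPKM. The high-affinity transporter gene NRT2.4 had 2.90 FPKM at 6 h and 0.672 FPKM at 0 h. BT2, a scaffold protein that represses nitrate uptake genes under low nitrate, had 28.3 FPKM at 6 h and 11.4 FPKM at 0 h, and stood at 105 FPKM at 24 h. LBD39, a repressor of nitrate-responsive genes, had 41.6 FPKM at 6 h and 27.7 FPKM at 0 h (q = 0.0122 in the authors' deposited table). In contrast, the nitrate reductase gene NIA1 had 9.45 FPKM at 6 h and 15.2 FPKM at 0 h (q = 0.00246 in the authors' deposited table). AT1G13300, the transcriptional repressor HRS1, had 27.4 FPKM at 6 h and 45.9 FPKM at 0 h. Further down the pathway, the cytosolic glutamine synthetase GSR2 had one of the largest gains of any gene, with 1978 FPKM at 6 h and 1120.4 FPKM at 0 h (q = 0.00850 in the authors' deposited table).

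Genes known to respond to low sugar were called higher more often than lower. Of 18 such genes, 5 were called higher and 1 lower, and 16 had a higher value at 6 h, with a median change of 0.26. DIN10, a raffinose synthase family gene, had 132 FPKM at 6 h and 62.2 FPKM at 0 h, and the sugar transporter gene STP4 had 126 FPKM at 6 h and 57.2 FPKM at 0 h. TPS8, of the trehalose-phosphate synthase family, had 22.0 FPKM at 6 h and 11.9 FPKM at 0 h. ASN1, an asparagine synthetase gene that is high in the dark, went the other way, with 2.50 FPKM at 6 h and 5.23 FPKM at 0 h (q = 0.000666 in the authors' deposited table). PPDK, which makes phosphoenolpyruvate from pyruvate, was among the 15 largest rises of all genes, with 15.7 FPKM at 6 h and 1.74 FPKM at 0 h. GAT1_2.1, a glutamine amidotransferase-like gene, had 74.9 FPKM at 6 h and 12.1 FPKM at 0 h, with 37.0% of its stretches shared with another gene. The changes of PPDK and GAT1_2.1 were 2.61 and 2.54.

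Other nutrient lists had calls in both directions or few calls. Of 18 iron deficiency genes, 2 were called higher and 4 lower, with a median change of -0.32. FRU, also called FIT, the bHLH factor that switches on iron uptake, had 323 FPKM at 6 h and 142 FPKM at 0 h, and the nicotianamine synthase NAS2 had 143 FPKM at 6 h and 40.9 FPKM at 0 h. The uptake genes that FIT is known to activate were lower. IRT1, the iron transporter, had 23.1 FPKM at 6 h and 42.5 FPKM at 0 h (q = 0.00246 in the authors' deposited table). The ferric reductase FRO2 had 5.80 FPKM at 6 h and 11.4 FPKM at 0 h, and CYP82C4, an enzyme of coumarin synthesis, had 0.302 and 3.71 FPKM in the same order. Phosphate starvation genes had 2 of 15 called higher and 3 lower, and sulfur deficiency genes 2 of 12 lower and 0 higher (1 higher and 2 lower at an unadjusted p below 0.05). The phosphate transporter PHT1;4 rose, with 119 FPKM at 6 h and 78.7 FPKM at 0 h, and the galactolipid synthase MGD2 fell, with 2.16 FPKM at 6 h and 6.41 FPKM at 0 h. PHT1;4 had q = 0.00462 in the authors' deposited table. The sulfate transporter SULTR1;1 had 3.03 FPKM at 6 h and 6.21 FPKM at 0 h.

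In the hormone lists single genes stood out. Calls went both ways in the auxin, cytokinin and ethylene lists, and only to lower values in the jasmonate list. The abscisic acid and gibberellin lists held 1 call each, which gives no direction for the list. Auxin genes had 3 of 30 called higher and 6 lower, with a median change of 0.06. The higher ones were early response genes. GH3.1 and BRU6, also called GH3.2, whose enzymes join auxin to amino acids, had 20.1 and 22.7 FPKM at 6 h, against 6.04 and 8.77 FPKM at 0 h. IAA5, a short-lived repressor, had 5.06 FPKM at 6 h and 1.69 FPKM at 0 h (q = 0.0142 in the authors' deposited table). The lower ones included other repressors of the same family and transporters. AXR3 and IAA14 had 200.1 and 28.2 FPKM at 6 h, against 318 and 45.3 FPKM at 0 h, with q-values of 0.00246 and 0.00174 in the authors' deposited table. The carriers LAX3 and PIN4 had 12.5 and 9.16 FPKM at 6 h, against 22.4 and 16.5 FPKM at 0 h. SAUR genes, small auxin-response genes, had 4 of 36 called higher and 5 lower, led by AT4G34810 with 55.5 FPKM at 6 h and 158 FPKM at 0 h.

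Cytokinin genes had 1 of 11 called higher and 4 lower, and 10 had a lower value at 6 h, with a median change of -0.23. The members are mostly type-A response regulators, which cytokinin induces and which dampen its signal. ARR3 and ARR4 had 28.8 and 44.8 FPKM at 6 h, against 49.2 and 74.7 FPKM at 0 h. ARR7 was the exception, with 3.53 FPKM at 6 h and 0.730 FPKM at 0 h (q = 0.00483 in the authors' deposited table). The calls of ARR6 and ARR15 were lost when adjusted within this comparison. Jasmonate genes had 5 of 15 called lower and 0 higher (0 higher and 5 lower at an unadjusted p below 0.05), with a median change of -0.20. The JAZ repressor gene JAZ1 had 46.6 FPKM at 6 h and 70.5 FPKM at 0 h (q = 0.00720 in the authors' deposited table), and it stood above both at 24 h with 137 FPKM. JAZ6 had 2.39 FPKM at 6 h and 4.78 FPKM at 0 h (q = 0.00776 in the authors' deposited table), and the calls of JAZ3 and TIFY7 were lost when adjusted within this comparison.

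Ethylene genes had 3 of 18 called higher and 2 lower. ACS2, an enzyme of ethylene synthesis, had 12.3 FPKM at 6 h and 6.58 FPKM at 0 h, and ERF6 had 40.7 and 21.8 FPKM in the same order. EBF1, which marks the ethylene factor EIN3 for breakdown, had 29.2 FPKM at 6 h and 47.1 FPKM at 0 h (q = 0.000951 in the authors' deposited table). Abscisic acid genes had 1 of 13 called higher, the cold and drought gene KIN1, with 56.3 FPKM at 6 h and 16.5 FPKM at 0 h, and 0 lower (2 higher and 1 lower at an unadjusted p below 0.05). Gibberellin genes had 1 of 13 called lower, the biosynthesis gene GA3OX2, with 0.722 FPKM at 6 h and 2.73 FPKM at 0 h (q = 0.00421 in the authors' deposited table), and 0 higher (3 higher and 1 lower at an unadjusted p below 0.05). Touch and wounding genes had 3 of 14 called higher and 1 lower. The calmodulin-like gene TCH3 had 45.7 FPKM at 6 h and 14.0 FPKM at 0 h, and WRKY33 had 83.6 and 46.9 FPKM in the same order. The lower one was TCH4, so TCH genes went both ways.

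Clock genes had 3 of 18 called lower and 0 higher (0 higher and 4 lower at an unadjusted p below 0.05), and 17 had a lower value at 6 h, with a median change of -0.16. TCP11, as RefSeq names it, or CHE, a clock factor, had 6.25 FPKM at 6 h and 22.0 FPKM at 0 h, and GI had 21.1 FPKM at 6 h and 33.4 FPKM at 0 h (q = 0.000951 in the authors' deposited table). The call of ELF4 was lost when adjusted within this comparison. The hour of sampling is not in the labels, and its part in these values was not tested.

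Detoxification and defence metabolism had calls in both directions. Glutathione transferases, which tag foreign compounds and which TGA factors are known to regulate, had 4 of 27 called higher and 7 lower, with a median change of -0.06. The phi class genes GSTF7 and GSTF2 had 27.2 and 64.2 FPKM at 6 h, against 11.8 and 33.4 FPKM at 0 h, and GSTF2 shares 45.2% of its stretches with another gene. All 7 genes called lower were of the tau class, as was GSTU10, which was called higher, with 15.4 FPKM at 6 h and 9.86 FPKM at 0 h (q = 0.0302 in the authors' deposited table), a call lost when adjusted within this comparison. GSTU19 had 1563 FPKM at 6 h and 2862 FPKM at 0 h, and GSTU25 had 892 and 1489 FPKM in the same order, with q-values of 0.00292 and 0.00246 in the authors' deposited table. The whole list summed to 7002 FPKM at 6 h and 9542 FPKM at 0 h. Cytochromes P450 had 19 of 122 called higher and 24 lower. CYP702A3 had 4.65 FPKM at 6 h and 0.225 FPKM at 0 h (q = 0.000951 in the authors' deposited table), and CYP71A16 fell, with 32.2 FPKM at 6 h and 85.9 FPKM at 0 h. Glucosinolate and camalexin genes had 3 of 16 called higher and 2 lower. Of the indolic pathway, the factor MYB51 and the modifying enzyme CYP81F2 had 8.57 and 1.74 FPKM at 6 h, against 4.30 and 0.492 FPKM at 0 h, with q-values of 0.000666 and 0.00174 in the authors' deposited table. MYB34, another activator of that pathway, fell, with 14.8 FPKM at 6 h and 30.8 FPKM at 0 h. UDP-glycosyltransferases, as matched by product name, had 1 of 34 called higher and 6 lower. Of these 7 calls, 2 were kept when adjusted within this comparison. The match took in UGD2, a UDP-glucose dehydrogenase gene called lower (q = 0.0215 in the authors' deposited table), whose call was lost when adjusted within this comparison. It left out AT3G22250, a glycosyltransferase gene called lower. Phenylpropanoid and flavonoid genes had 1 of 13 called lower, the factor MYB12, with 15.8 FPKM at 6 h and 27.6 FPKM at 0 h, and 0 higher (0 higher and 1 lower at an unadjusted p below 0.05).

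Genes of cell division had higher values at 6 h, most of them by little. All 27 genes of mitosis and cytokinesis had a higher value, with a median change of 0.44, and 8 were called higher and 0 lower (15 higher and 0 lower at an unadjusted p below 0.05). CYCB2;3, a mitotic cyclin, had 6.82 FPKM at 6 h and 3.11 FPKM at 0 h, with 13.7% of its stretches shared. The Aurora kinase AUR3 had 3.16 FPKM at 6 h and 1.23 FPKM at 0 h (q = 0.0108 in the authors' deposited table). The calls of the other 6, CDKB2;1, CDKB2;2, CYCB1;4, HIK, EDE1 and MYB3R-4, were lost when adjusted within this comparison. Their changes lay between 0.52 and 0.56. The list summed to 197 FPKM at 6 h and 146 FPKM at 0 h. DNA replication genes had 1 of 21 called higher, MCM3, with 7.49 FPKM at 6 h and 5.04 FPKM at 0 h (q = 0.0333 in the authors' deposited table). That call was lost when adjusted within this comparison. Kinesins had 4 of 26 called higher and 1 lower, and 1 of these 5 calls was kept when adjusted within this comparison. Histones had 1 of 42 higher, the centromeric histone HTR12, whose call was lost when adjusted within this comparison.

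Ribosomal protein genes had small differences, most of them of one sign. Of 290 genes, 264 had a higher value at 6 h and 25 a lower one, with a median change of 0.17, whereas 53.0% of all genes had a higher value. None was called higher and 2 were called lower (8 higher and 2 lower at an unadjusted p below 0.05). They summed to 75753 FPKM at 6 h and 67325 FPKM at 0 h. FPKM values are shares of a library, and the genes called lower held a smaller share at 6 h, so a rise of this size in share and a rise in transcripts per cell cannot be told apart.

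Markers of tissues bear on what was sampled. Root cap genes (5 compared), xylem vessel genes (8) and phloem genes (3) had no call in either direction, and none reached an unadjusted p below 0.05. The most abundant markers were close to their 0 h levels. The cap factor NAC015 had 50.1 FPKM at 6 h and 55.3 FPKM at 0 h, the vessel protease XCP1 had 19.0 and 19.3 FPKM, and the phloem gene OPS had 2.05 and 2.13 FPKM in the same order. Of 6 root meristem genes, 1 was called higher, AIL6, a PLETHORA factor gene, with 7.48 FPKM at 6 h, against 4.90 FPKM at 0 h. AIL6 had q = 0.0420 in the authors' deposited table, 13.3% of its stretches lie in another gene as well, and the call was lost when adjusted within this comparison. Genes of green tissue passed the filter in 5 of 9 cases, with none called (0 higher and 1 lower at an unadjusted p below 0.05), and PSAD-1 had 17.8 FPKM at 6 h and 19.0 FPKM at 0 h. Nuclear photosystem genes had 1 of 42 called higher and 0 lower. The markers thus put cap, vessel, endodermis and hair cells in both samples. Hypoxia genes had 1 of 8 called lower, ERF71, whose call was lost when adjusted within this comparison, and heat shock genes 1 of 10 higher, the chaperone HSP90.1, with 11.5 FPKM at 6 h and 5.49 FPKM at 0 h.

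Several of the largest changes lay outside these groups. AT4G32950, a protein phosphatase 2C gene, had 19.1 FPKM at 6 h and 1.23 FPKM at 0 h, and J11, a DnaJ-domain chaperone gene, had 121 and 18.4 FPKM in the same order. EARLI1, a lipid-transfer-like gene, had 7.91 FPKM at 6 h and 0.389 FPKM at 0 h (q = 0.00795 in the authors' deposited table). AT4G03540, whose product belongs to the family of the CASP proteins, had 7.15 FPKM at 6 h and 0.411 FPKM at 0 h, at q = 0.0255 in the authors' deposited table, and its call was lost when adjusted within this comparison. AT2G22880, annotated as a VQ motif protein, had 104 FPKM at 6 h and 11.4 FPKM at 0 h. However, 100.0% of its stretches also lie in an overlapping gene, counted in either orientation, so its source is uncertain. Receptor kinases with leucine-rich repeats had 9 of 112 called higher and 14 lower, and AT1G05700 of this family had 19.1 FPKM at 6 h and 5.97 FPKM at 0 h. Cupins had 4 of 13 called higher and 1 lower, and heat shock proteins 2 of 30 higher and 0 lower (4 higher and 0 lower at an unadjusted p below 0.05).

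Among the falls, AT2G31540, a GDSL lipase gene, had 3.54 FPKM at 6 h and 19.0 FPKM at 0 h, with 25.2% of its stretches shared. The glycosyltransferase gene AT3G22250, not counted in the family above, had 1.19 FPKM at 6 h and 8.52 FPKM at 0 h. PHI-1, a phosphate-responsive family gene, had 1.33 and 7.65 FPKM in the same order. By absolute level the largest losses were in root genes that were among the most abundant of all. AT5G46890 and AT5G46900, lipid-transfer-like neighbours, had 797 and 860.4 FPKM at 6 h, against 2799 and 2556 FPKM at 0 h, and share 18.9% and 15.7% of their stretches. RCI2B, a small membrane protein gene induced by cold, had 3075 FPKM at 6 h and 4718 FPKM at 0 h (q = 0.0103 in the authors' deposited table). PYK10, the beta-glucosidase of ER bodies, had 2706 FPKM at 6 h and 4079 FPKM at 0 h (q = 0.0359 in the authors' deposited table), and its call was lost when adjusted within this comparison.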

How the data were processed

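Messenger RNA was measured in roots at 0, 6 and 24 h of PAN induction. Per the labels' protocols, libraries were strand-specific, made from poly(A) RNA and sequenced from 1 end over 100 bp. Per the submitters' processing notes, TopHat2 2.0.13, Cufflinks 2.1.1 and Cuffdiff were used with the TAIR10 build. The authors deposited 1 table of 33201 rows, with 1 value per row and time, made from 3 replicates. Neither header nor labels name the unit of these values. They were taken as FPKM, scaled for transcript length and library size, from the tools the authors used and from the values themselves. Per the file headers, the table also holds the authors' log2 fold change and q-value for each pair of times. Among rows above 0 at both times, the deposited log2 fold change equalled the log2 ratio of the values within 0.001 in 99.9953%. The depth of the samples is unknown, so no counting interval is given, and the replicates pooled in each value are biological replicates per the labels.

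Calls used the deposited q-values below 0.05 and a mean FPKM of at least 1. Replicate tests were not possible, so no model was fitted. The p-values behind the q-values were recovered by treating these as a Benjamini-Hochberg adjustment pooled over 53530 tests, and 99.5% of them were whole multiples of 5e-05 within 0.02. The recovery was tested on simulated data. Names and families came from RefSeq (TAIR10.1), which matched 17501 rows (98.1%). A stretch of 100 bp was counted as shared where it also occurs, in either orientation, in the longest transcript of a different gene. The orientations were not counted apart, so shared stretches can lie on the opposite strand, which strand-specific libraries may tell apart. Lists of genes by function numbered 30 and families by product name 25, and 8 further families were added after values were seen. Members and lists were chosen with earlier results of these data known. Lists are described by counts and medians, with no test of a list. Named genes were PAN, the 15 largest called rises and falls, the 8 largest gains and losses of level, at most 8 called members per list or family by size of change (or its most abundant member where none was called), and the 10 largest called rises and falls of factor genes. Analyses used Python 3.11.15, pandas 2.3.3, numpy 2.4.6, scipy 1.17.1 and matplotlib 3.10.9.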

Additional observations from a re-analysis of the deposited data

How the results depend on the processing

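No paired analysis was possible because the authors merged the replicates before deposit, and no column carries a replicate number. Fits with a replicate block and fits that leave out each replicate were not run for the same reason. The 2021 calls became 1224 with a q-value limit of 0.01 (418 higher and 806 lower). A minimum change of 1 left 460 calls (226 higher and 234 lower), and by the authors' log2 fold change, an alternative added after the data were seen, it left 638 (313 higher and 325 lower). Adjustment within this comparison left 1358 calls (466 higher and 892 lower). No filter on low values gave 2050 calls, a mean of at least 5 gave 1597, a mean of at least 1 over 0 h and 6 h alone gave 2025, and rows of a single locus gave 2008. The share of calls that were higher was 31.7% to 35.2% in these settings, and 49.1% with a minimum change of 1 on either scale. No called gene changed sign with a pseudocount of 0.1, median-of-ratios scaling, quantile normalization, removal of the length trend or the authors' log2 fold change. The largest shift of a called gene (log2) was 3.27 with a pseudocount of 0.1, 2.84 with the authors' log2 fold change, 0.561 under quantile normalization, 0.07 with the length trend removed and 0.0142 under median-of-ratios scaling. Adjustment within this comparison kept 27 of 43 calls among cytochromes P450, 7 of 11 among expansins, 6 of 10 among AP2/ERF factors, 3 of 5 among glucosinolate and camalexin genes, 2 of 4 in the phloem protein 2 family, 1 of 2 among sulfur deficiency genes, 1 of 2 among heat shock proteins and 0 of 1 among nuclear photosystem genes. It ended the calls of 54 of the named genes. The depth is unknown.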

Other observations

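Families seen among the called genes and counted after their values were seen add to the groups above. Lipid-transfer-like proteins, small secreted proteins that carry lipids, had 14 of 42 genes called lower and 4 higher, and they summed to 8898 FPKM at 6 h and 17236 FPKM at 0 h. AT4G12510 and AT4G12545, neighbours on chromosome 4, had 683 and 487 FPKM at 6 h, against 1736 and 1231 FPKM at 0 h. EDA4 and AT5G13900 went the other way, with 31.4 and 33.5 FPKM at 6 h, against 13.4 and 13.7 FPKM at 0 h. ABC-2 type transporters, the group of half-size exporters of wax and suberin precursors to which ABCG6 and ABCG20 belong, had 5 of 9 called higher and 0 lower (6 higher and 0 lower at an unadjusted p below 0.05). The other 3 were ABCG16, ABCG23 and ABCG1, with 3.57, 2.63 and 16.7 FPKM at 6 h, against 0.854, 0.601 and 8.84 FPKM at 0 h, and the call of ABCG1 was lost when adjusted within this comparison. MYB107, known in seed coats as a regulator of suberin, was called higher as well, with 2.09 FPKM at 6 h and 0.648 FPKM at 0 h (q = 0.00813 in the authors' deposited table).

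Methyl esterases, some of which act on methyl salicylate, had 5 of 9 genes called lower and 0 higher (0 higher and 5 lower at an unadjusted p below 0.05), led by MES1 with 17.1 FPKM at 6 h and 38.6 FPKM at 0 h, and 2 of these calls were kept when adjusted within this comparison. Trichome birefringence-like genes, whose products acetylate wall sugars, had 7 of 35 called lower and 0 higher (0 higher and 9 lower at an unadjusted p below 0.05). VQ motif proteins, which bind WRKY factors, had 5 of 22 called higher and 2 lower. AT4G20000 had 42.2 FPKM at 6 h and 16.8 FPKM at 0 h, and AT3G56880 had 98.5 FPKM at 6 h and 48.5 FPKM at 0 h. MLO proteins had 3 of 12 called higher and 0 lower (3 higher and 1 lower at an unadjusted p below 0.05), with MLO14 at 37.3 FPKM at 6 h and 16.6 FPKM at 0 h. The phloem protein 2 family had 4 of 14 called higher and 0 lower (4 higher and 0 lower at an unadjusted p below 0.05), and GDSL lipases 7 of 30 higher and 7 lower.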
